A study of Mus musculus with 7 samples.

Results

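The genes described here are markers of blood and lymphatic endothelium, the single layer of cells that lines vessels. They are 38 named gene symbols, and a gene was a member where the first column of the deposited expression table equalled its symbol. All 38 were found among the 31274 rows of the table. Of these, 37 passed the filter on low values (at least 1 FPKM in at least 3 libraries) and were tested, among 13920 tested genes in all. Apln did not, since it reached 1 FPKM in only 2 libraries. RNA sequencing had been run on whole uteri of intact, unexposed CD-1 mice, an outbred stock, at 2 months of age, and the labels give neither group a treatment or a mutation. The estrus group (CoE in the titles) held 3 libraries and the diestrus group (CoD) held 4. Nothing in the labels ties each library to an animal of its own, so the p-values reflect only how far these libraries differ, and that spread may be technical.

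Endothelial cells are held together by VE-cadherin and claudin-5 and are kept alive and patterned by 2 receptor systems, the VEGF receptors (Flt1, Kdr, Flt4) and the Tie receptors (Tek, Tie1). The transcription factors Erg, of the ETS family, and Sox7, Sox17 and Sox18, of the SoxF group, maintain endothelial identity. Arterial and sprouting behaviour runs through Notch signalling, in which the ligand Dll4 on leading tip cells restrains the neighbours behind them, while Prox1 and Flt4 define lymphatic endothelium. In the uterus, vessels grow and regress with the ovarian cycle: estradiol peaks shortly before estrus, and progesterone is high in diestrus.

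Many blood and lymphatic endothelial genes, among them claudin-5, endomucin and VE-cadherin, were lower in estrus uteri than in diestrus uteri. Of 37 tested members, 17 fell, 1 rose (Sox7) and 19 did not pass the threshold, a Benjamini-Hochberg adjusted p under 0.05 in limma on log2(FPKM + 1). Among all tested genes, 14.0% were called lower and 17.2% higher, against 45.9% and 2.7% of the members. The median log2 fold change, estrus over diestrus, was -0.77 for the members and 0.05 for all tested genes, and 29 of the 37 were negative (46.8% of all tested genes were). The 17 that fell ranged in log2 fold change from -1.57 for Cldn5 to -0.54 for Eng. The estrus and diestrus libraries did not overlap at 21 members, 20 of them with estrus lower; over all tested genes 40.6% did not overlap and 18.7% did so with estrus lower. The median member stood at 11.4, 11.5 and 15.1 FPKM in estrus replicates 1 to 3, against 14.4, 20.002, 19.6 and 29.9 FPKM in diestrus replicates 1 to 4.

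The number of calls rested on single libraries. Without estrus replicate 2 the count of members that fell was 1 (Nos3, 2.7% of the members against 4.20% of all tested genes) and none rose. The adjusted p values of the other 16 then lay between 0.0506 and 0.145, and all 17 kept negative log2 fold changes. Without estrus replicate 1 the count was 6 (Cldn5, Esam, Emcn, Tek, Nos3 and Arhgef15), and without diestrus replicate 4 it was 11, against 8.04% and 8.31% of all tested genes. Without diestrus replicate 1, the diestrus library nearest to estrus on the first principal component of all tested genes, it was 23, or 62.2% of the members against 17.7% of all tested genes. Nos3 passed whichever library was left out, while Cldn5, Esam, Emcn, Tek, Arhgef15 and Sox7 lost the call only without estrus replicate 2. Of the 38 members, 28 were lowest in an estrus library and 26 were highest in diestrus replicate 4. FPKM is a share of the RNA of the whole tissue. Fewer endothelial cells, less RNA per endothelial cell and more RNA from other cells therefore cannot be told apart.

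**Figure D1:**
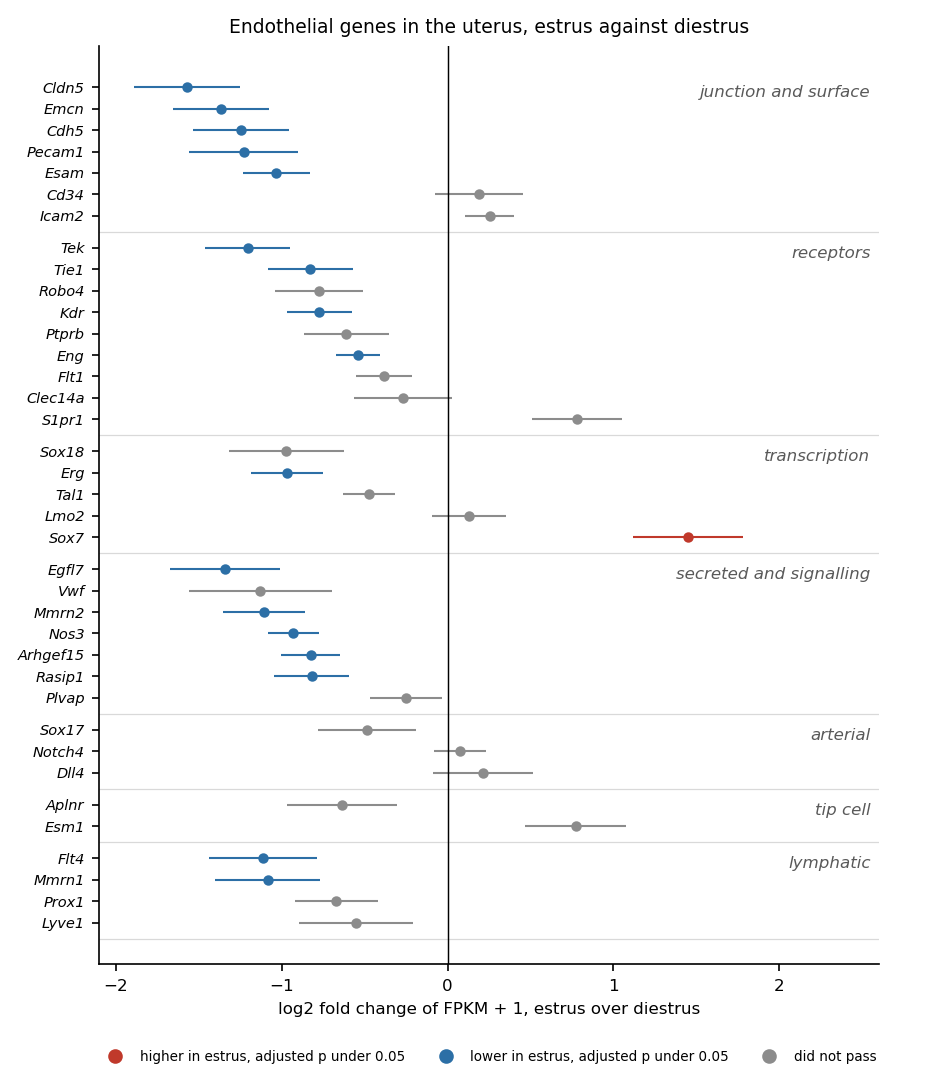
Log2 fold change of FPKM + 1 (x axis, estrus over diestrus) of the 37 tested members, grouped by role; points are limma estimates, bars are ± 1 SE, and colour marks the call. The 17 members that fell lie between -1.57 and -0.54, Sox7 lies at 1.45, and the arterial and tip cell genes lie on both sides of 0.

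Values per library are given in replicate order, estrus replicates 1 to 3 and diestrus replicates 1 to 4. Of 7 junction and surface genes, 5 fell, and the 5 had no overlap between the groups. Cdh5, VE-cadherin, the adherens junction protein of endothelium, was at 25.9, 23.8 and 28.5 FPKM in estrus, against 38.8, 53.2, 81.7 and 92.99 FPKM in diestrus. All estrus libraries lay below every diestrus library, and the log2 change was -1.25 (SE 0.29, limma adjusted p = 0.0177). Cldn5, the endothelial tight junction claudin (GRCm38 chr16:18776847-18778262, protein-coding), had the most negative log2 fold change of the 37 tested members, at 11.04, 10.4 and 10.6 FPKM in estrus, against 26.1, 45.4, 20.3 and 53.6 FPKM in diestrus. Its estrus libraries lay close together and its diestrus libraries spread widely, with replicates 2 and 4 the highest; the log2 fold change was -1.57 (SE 0.32, limma adjusted p = 0.0109).

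Pecam1, the homophilic adhesion molecule CD31, averaged 43.1 ± 8.22 FPKM in estrus and 108 ± 43.3 FPKM in diestrus (SD, n = 3 and 4), with single libraries at 40.4, 36.5 and 52.3 FPKM in estrus, against 55.6, 103, 113 and 161 FPKM in diestrus. Its highest estrus value lay just under its lowest diestrus value, and with 1 library left out it passed only without estrus replicate 3 or diestrus replicate 1. Emcn, endomucin, a sialomucin of capillaries and veins, was at 22.8, 15.4 and 21.5 FPKM in estrus, against 33.1, 44.3, 69.3 and 72.5 FPKM in diestrus, and Esam, an immunoglobulin-type adhesion molecule, at 21.6, 16.7 and 20.4 FPKM in estrus, against 33.4, 33.5, 44.1 and 56.2 FPKM in diestrus. The 2 genes had log2 fold changes of -1.37 and -1.03 (limma adjusted p = 0.013 and 0.00993). The other two surface genes did not pass. Icam2, a leukocyte-binding adhesion molecule, was at 16.4, 17.5 and 18.99 FPKM in estrus, against 12.1, 15.6, 13.5 and 17.7 FPKM in diestrus, with overlapping groups (log2 0.25, limma adjusted p = 0.213). Cd34, a sialomucin shared with blood progenitors and stromal cells, had the highest FPKM of the members in all libraries but diestrus replicate 2, where Pecam1 did, and was at 205, 174 and 163 FPKM in estrus, against 162, 95.7, 197 and 201 FPKM in diestrus, with overlapping groups (log2 0.19, limma adjusted p = 0.607).

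Among 9 receptors and membrane regulators, Tek, Tie1, Kdr and Eng fell. Tek, the angiopoietin receptor Tie2, was at 7.61, 6.81 and 8.301 FPKM in estrus, against 11.3, 19.7, 20.9 and 26.2 FPKM in diestrus, for a log2 change of -1.21 (SE 0.25, limma adjusted p = 0.0127). Tie1, its partner receptor without a ligand of its own among the angiopoietins, was at 15.6, 14.2 and 16.8 FPKM in estrus, against 17.9, 26.3, 33.1 and 41.2 FPKM in diestrus, and its change of -0.83 passed narrowly (limma adjusted p = 0.0435). It passed in 1 of the 7 fits that left out a library, without diestrus replicate 1. Kdr, VEGF receptor 2, the main signalling receptor for VEGF-A, was at 13.9, 12.3 and 15.4 FPKM in estrus, against 18.6, 22.2, 25.6 and 33.1 FPKM in diestrus (log2 -0.77, limma adjusted p = 0.0229). Flt1, VEGF receptor 1, which binds VEGF-A tightly and limits its action on Kdr, was at 5.67, 6.33 and 8.36 FPKM in estrus, against 7.66, 10.6, 8.43 and 9.81 FPKM in diestrus; its groups overlapped and its change of -0.39 did not pass (limma adjusted p = 0.116).

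The difference between related receptors was tested within libraries, on pairs chosen after the values had been seen. The change of Flt1 minus that of Kdr was 0.39 on the log2 scale (SE 0.26, limma adjusted p = 0.202), and the change of Tie1 minus that of Tek was 0.38 (SE 0.30, limma adjusted p = 0.255), so neither pair was shown to differ. The sequences before the start sites of these 4 receptor genes are shown so that the members of each receptor family can be set side by side. They are 250 bases each from RefSeq (GRCm38.p6), read 5′ to 3′ on the gene's own strand and ending at the base before the start site. Capitals mark the hexamers AGGAAG and CGGAAG, on either strand, which hold the GGAA core that ETS factors such as Erg bind. Kdr lies at chr5:75978456-75978705, minus strand, Flt1 at chr5:147726012-147726261, minus strand, Tek at chr4:94739039-94739288, plus strand and Tie1 at chr4:118489850-118490099, minus strand.
Kdr: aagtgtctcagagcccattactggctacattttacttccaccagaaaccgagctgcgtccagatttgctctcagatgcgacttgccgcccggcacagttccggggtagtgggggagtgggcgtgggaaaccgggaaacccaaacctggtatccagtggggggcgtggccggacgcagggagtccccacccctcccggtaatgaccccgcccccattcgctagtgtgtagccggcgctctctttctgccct
Flt1: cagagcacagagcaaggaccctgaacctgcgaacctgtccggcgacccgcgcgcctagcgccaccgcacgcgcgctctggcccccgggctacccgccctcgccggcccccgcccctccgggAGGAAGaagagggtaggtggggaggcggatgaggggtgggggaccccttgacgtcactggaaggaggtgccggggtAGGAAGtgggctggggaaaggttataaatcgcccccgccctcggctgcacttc
Tek: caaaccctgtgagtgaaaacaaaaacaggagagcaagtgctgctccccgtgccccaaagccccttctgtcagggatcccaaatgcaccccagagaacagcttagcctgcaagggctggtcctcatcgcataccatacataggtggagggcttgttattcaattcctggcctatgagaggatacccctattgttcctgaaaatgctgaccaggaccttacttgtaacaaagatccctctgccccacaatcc
Tie1: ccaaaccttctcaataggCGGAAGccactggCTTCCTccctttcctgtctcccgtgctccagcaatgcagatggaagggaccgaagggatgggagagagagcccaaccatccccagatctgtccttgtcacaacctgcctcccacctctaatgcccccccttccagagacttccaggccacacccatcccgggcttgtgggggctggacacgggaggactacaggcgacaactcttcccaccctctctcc

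Flt1 and Tie1 each hold 2 such hexamers in the printed stretch, and Kdr and Tek hold none. Kdr and Tek do hold the GGAA core itself, on one strand or the other, within other hexamers that were not marked. In the wider windows of 300 bases (250 before and 50 after a start site), 12 of 27 promoters of 21 members with an entry held one, or 44.4%, against 46.5% of all 32851 promoters. The core ACAAT, read by SOX factors, was in 29.6% of the member promoters and 31.0% of all, and AGATAA, read by GATA factors, in 11.1% and 11.2%. AGGTCA, the hexamer that occurs in pairs in estrogen response elements, was in 14.8% and 16.3%, each motif counted on both strands. These letters were thus about as frequent in member promoters as in promoters at large.

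Eng, endoglin, a co-receptor for BMP9 and TGF-beta, was at 36.4, 39.2 and 39.3 FPKM in estrus, against 46.7, 59.997, 54.5 and 64.8 FPKM in diestrus, and its change of -0.54 was the smallest that passed (limma adjusted p = 0.0215). Robo4, a roundabout receptor that stabilises vessels, had estrus values of 4.47 to 6.10 FPKM and diestrus values of 6.52 to 13.9 FPKM, without overlap, but did not pass (-0.77, limma adjusted p = 0.0601). Ptprb, the phosphatase VE-PTP that restrains Tek, and Clec14a, a C-type lectin of tumour and developing vessels, had overlapping groups and changes of -0.61 and -0.27 (limma adjusted p = 0.103 and 0.504). S1pr1, the receptor for sphingosine-1-phosphate that closes junctions and is also carried by lymphocytes, went the other way, at 30.03, 43.1 and 51.9 FPKM in estrus, against 14.9, 24.7, 25.1 and 31.3 FPKM in diestrus. Estrus replicate 1 lay below diestrus replicate 4, and the change of 0.78 (SE 0.27) did not pass (limma adjusted p = 0.0608).

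**Figure D2:**
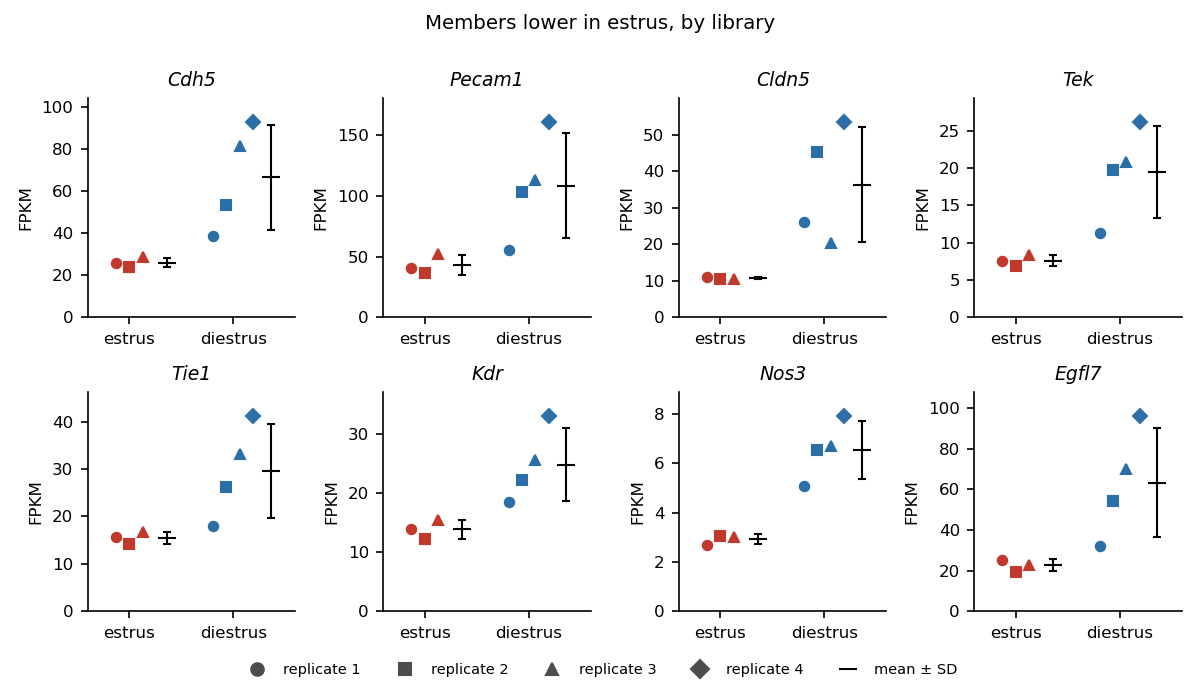
FPKM (y axes, from 0) of 8 members that fell, for each library in estrus (left) and diestrus (right); symbols mark the replicate number, black marks the mean ± SD. Every estrus library lies below every diestrus library in each panel, and diestrus replicate 1 is the lowest diestrus library in all panels but Cldn5, where replicate 3 is at 20.3 FPKM.

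The 3 SoxF factors did not move together. Sox7 (GRCm38 chr14:63943673-63950732, protein-coding) was the 1 member that rose, at 18.1, 28.2 and 42.4 FPKM in estrus, against 13.8, 11.98, 7.62 and 6.66 FPKM in diestrus. All estrus libraries lay above every diestrus library, and the log2 fold change was 1.45 (SE 0.33, limma adjusted p = 0.0164; exact two-sided permutation p = 0.029, the smallest that 35 assignments of the libraries can give). Without estrus replicate 2 its limma adjusted p was 0.0676. Sox18, which with Sox7 and Sox17 shares the SoxF DNA-binding domain and acts in both vessel types, was at 17.4, 12.6 and 18.2 FPKM in estrus, against 16.5, 33.6, 36.8 and 51.5 FPKM in diestrus. Its estrus values overlapped with diestrus replicate 1 only, and its change of -0.97 did not pass (limma adjusted p = 0.0657). Of the 7 fits that left out a library, it passed in the one without diestrus replicate 1 (adjusted p = 0.0057). Within libraries the change of Sox7 exceeded that of Sox18 by 2.42 on the log2 scale (SE 0.50, limma adjusted p = 3.66e-05), where 39.2% of all tested genes were called higher than Sox18. It exceeded that of Sox17 by 1.94 (SE 0.42, limma adjusted p = 0.000728), where 13.0% of all tested genes were called higher. The changes of Sox17 and Sox18 were not shown to differ (0.49, SE 0.50, limma adjusted p = 0.393). These pairs were chosen after the values had been seen. In each such fit all genes shared the error of the gene they were set against, so these p-values can be too small.

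Of the other transcription regulators, Erg fell, at 5.002, 5.35 and 5.803 FPKM in estrus, against 7.62, 11.6, 12.3 and 15.9 FPKM in diestrus (log2 -0.97, SE 0.22, limma adjusted p = 0.0161). Tal1 and Lmo2, which work in one complex and also serve blood stem cells, did not pass. Tal1 was near the filter, at 1.05, 1.03 and 1.32 FPKM in estrus, against 1.58, 1.84, 1.89 and 2.6001 FPKM in diestrus, without overlap (log2 -0.47, limma adjusted p = 0.0524). Lmo2 was far more abundant in FPKM and did not differ beyond its spread, at 23.3 ± 3.01 FPKM in estrus and 21.8 ± 6.75 FPKM in diestrus (SD, n = 3 and 4; log2 0.13, limma adjusted p = 0.678).

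Among 7 secreted, structural and signalling genes, 5 fell and all had negative log2 fold changes. Nos3, the endothelial nitric oxide synthase (GRCm38 chr5:24364810-24384474, protein-coding), was at 2.71, 3.06 and 3.04 FPKM in estrus, against 5.07, 6.53, 6.69 and 7.93 FPKM in diestrus. The 3 estrus libraries lay close together and below all diestrus libraries, and the log2 fold change of -0.93 (SE 0.16) had the smallest adjusted p of the members (limma, 0.00571). Exons of Atg9b overlap those of Nos3 on the opposite strand, and Atg9b ran from 0.785 to 5.17 FPKM in estrus and from 0.450 to 14.9 FPKM in diestrus, in another order. Egfl7, a secreted regulator of vessel tubes that hosts miR-126, was at 25.5, 19.6 and 22.8 FPKM in estrus, against 32.2, 54.5, 69.8 and 96.05 FPKM in diestrus (log2 -1.34, limma adjusted p = 0.0215). Mmrn2, a matrix protein of the vessel wall that binds Clec14a, was at 9.47, 10.1 and 13.7 FPKM in estrus, against 16.6, 24.9, 25.4 and 35.6 FPKM in diestrus (log2 -1.11, limma adjusted p = 0.0155).

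Rasip1 and Arhgef15, signalling proteins that act in vessel lumen formation and angiogenesis, fell to a similar extent. Rasip1 was at 5.85, 4.22 and 5.71 FPKM in estrus, against 7.38, 8.46, 10.8 and 14.4 FPKM in diestrus, and Arhgef15 at 3.896, 3.27 and 3.19 FPKM in estrus, against 5.89, 5.68, 7.17 and 9.23 FPKM in diestrus, with log2 fold changes of -0.82 and -0.83 (limma adjusted p = 0.031 and 0.0136). Vwf, von Willebrand factor, the clotting glycoprotein of Weibel-Palade bodies that platelets also store, was at 5.47, 9.51 and 12.9 FPKM in estrus, against 10.1, 17.7, 25.6 and 37.2 FPKM in diestrus. Its groups overlapped at diestrus replicate 1, and its change of -1.13, as large as those that passed, did not pass (SE 0.43, limma adjusted p = 0.0802). Of the 7 fits that left out a library, it passed in the one without diestrus replicate 1 (adjusted p = 0.0209). Plvap, the diaphragm protein of fenestrae and caveolae, was at 39.6 ± 4.78 FPKM in estrus and 48.4 ± 11.9 FPKM in diestrus (SD, n = 3 and 4) and did not pass (log2 -0.25, limma adjusted p = 0.391).

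None of the 3 arterial genes and neither of the 2 tested tip cell genes passed in limma, where 14.0% of all tested genes were called lower and 17.2% higher. With so few genes, these counts do not show that either class differed from genes at large. At an unadjusted p under 0.05 there were 0 arterial genes and 1 tip cell gene (Esm1), and the share over all tested genes is not given for that threshold. Dll4, the Notch ligand, was at 10.8, 8.099 and 16.9 FPKM in estrus, against 7.98, 6.59, 13.3 and 12.5 FPKM in diestrus, with overlapping groups and a change of 0.21 (SE 0.30, limma adjusted p = 0.606). Notch4, an endothelial Notch receptor, was nearly level, at 3.75, 2.94 and 4.22 FPKM in estrus, against 3.57, 2.69, 3.56 and 3.76 FPKM in diestrus (log2 0.08, SE 0.16, limma adjusted p = 0.734). Sox17, an arterial factor that the uterine epithelium also expresses, was at 33.95, 30.01 and 28.5 FPKM in estrus, against 70.3, 52.4, 33.9 and 28.5 FPKM in diestrus. Its diestrus libraries ran opposite to those of most members, with replicate 1 the highest and replicate 4 at the lower edge of estrus, and its change of -0.49 did not pass (limma adjusted p = 0.232).

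Esm1, endocan, a proteoglycan secreted by VEGF-stimulated tip cells, was at 4.18, 2.29 and 2.76 FPKM in estrus, against 2.91, 1.34, 0.776 and 0.8498 FPKM in diestrus. Estrus libraries were higher than diestrus replicates 2 to 4 and overlapped with replicate 1. The change of 0.77 (SE 0.30) had a limma adjusted p of 0.0867, and without diestrus replicate 1 it was 1.02 with an adjusted p of 0.0121. Aplnr, the apelin receptor of veins and sprouts, was at 18.5, 14.96 and 16.8 FPKM in estrus, against 17.7, 17.6, 44.3 and 35.5 FPKM in diestrus, and only diestrus replicates 3 and 4 stood above estrus (log2 -0.64, limma adjusted p = 0.173). Its ligand Apln, a tip cell peptide, was at 0.485, 0.483 and 0.207 FPKM in estrus, against 3.81, 2.13, 0.521 and 0.452 FPKM in diestrus. It exceeded 1 FPKM only in diestrus replicates 1 and 2 and was tested by permutation alone (exact two-sided permutation p = 0.23).

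**Figure D3:**
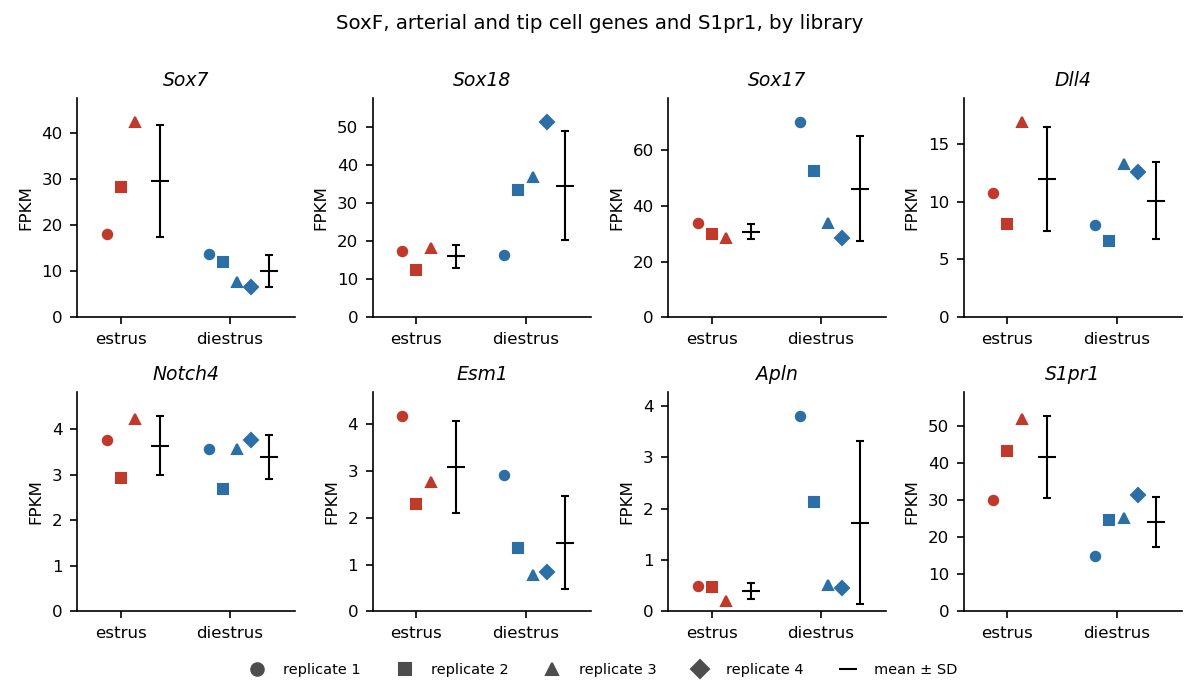
FPKM (y axes, from 0) per library in estrus (left) and diestrus (right) of the SoxF, arterial and tip cell genes other than Aplnr, and of S1pr1; symbols mark the replicate number, black marks the mean ± SD. Sox7 is higher in every estrus library, Sox18 is lower in estrus than in 3 of 4 diestrus libraries, and Sox17 and Apln are highest in diestrus replicate 1.

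All 4 lymphatic genes had negative log2 fold changes, and Flt4 and Mmrn1 fell. Flt4, VEGF receptor 3, the receptor for VEGF-C, was at 5.89, 5.99 and 6.26 FPKM in estrus, against 10.2, 22.5, 8.62 and 20.4 FPKM in diestrus (log2 -1.11, SE 0.33, limma adjusted p = 0.0367). Mmrn1, multimerin 1, a glycoprotein of lymphatic endothelium and platelets, was at 11.7, 10.8 and 10.6 FPKM in estrus, against 17.8, 34.1, 15.4 and 38.3 FPKM in diestrus (log2 -1.09, SE 0.32, limma adjusted p = 0.0367). In both genes the estrus libraries lay close together, while diestrus replicates 2 and 4 stood well above replicates 1 and 3. Prox1, the transcription factor that sets lymphatic identity, had the same order at 1.19, 1.42 and 1.28 FPKM in estrus, against 1.88, 3.704, 1.65 and 3.96 FPKM in diestrus, without overlap, but did not pass (log2 -0.67, limma adjusted p = 0.0767). Lyve1, a hyaluronan receptor that tissue macrophages also carry, was at 14.9, 19.1 and 26.4 FPKM in estrus, against 20.96, 37.2, 19.4 and 48.2 FPKM in diestrus, with overlapping groups (log2 -0.55, limma adjusted p = 0.243).

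The 2 lymphatic calls rested on single libraries. Flt4 and Mmrn1 passed only in the fits without diestrus replicate 1 or 3, and the largest adjusted p when a library was left out was 0.115 for Flt4 and 0.116 for Mmrn1, both without estrus replicate 2. Without diestrus replicate 3, Prox1 passed as well (limma adjusted p = 0.0469). Some markers of mesothelium, the outer cell layer of the uterus, were likewise highest in diestrus replicates 2 and 4 among the diestrus libraries (Upk3b, Msln and Lrrn4), and the other two of 5, Wt1 and Krt19, were not. The 5 summed to 565, 721 and 646 FPKM in estrus, against 281, 294, 208 and 259 FPKM in diestrus. Krt19, shared with epithelium, made up most of the estrus sums, at 500, 680 and 601 FPKM, against 195, 152, 97.2 and 85.1 FPKM in diestrus. The other genes went the opposite way, with log2 fold changes of -0.74 (Msln), -1.19 (Upk3b), -0.47 (Lrrn4) and -1.73 (Wt1), of which Upk3b and Wt1 passed. Upk3b was at 24.3, 12.4 and 14.3 FPKM in estrus, against 31.04, 44.99, 28.2 and 56.6 FPKM in diestrus, and the 8 smooth muscle genes summed to 2964, 3823 and 5287 FPKM in estrus, against 2644, 4435, 3818 and 6940 FPKM in diestrus. The part of these tissues in the lymphatic values was not tested. Within libraries the lymphatic members were also set against their closest blood vessel relatives, pairs again chosen after their values were seen. The change of Flt4 minus that of Kdr was -0.34 (limma adjusted p = 0.370) and that of Mmrn1 minus that of Mmrn2 was 0.02 (limma adjusted p = 0.951), so a difference between lymphatic and blood vessel members was not shown.

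**Figure D4:**
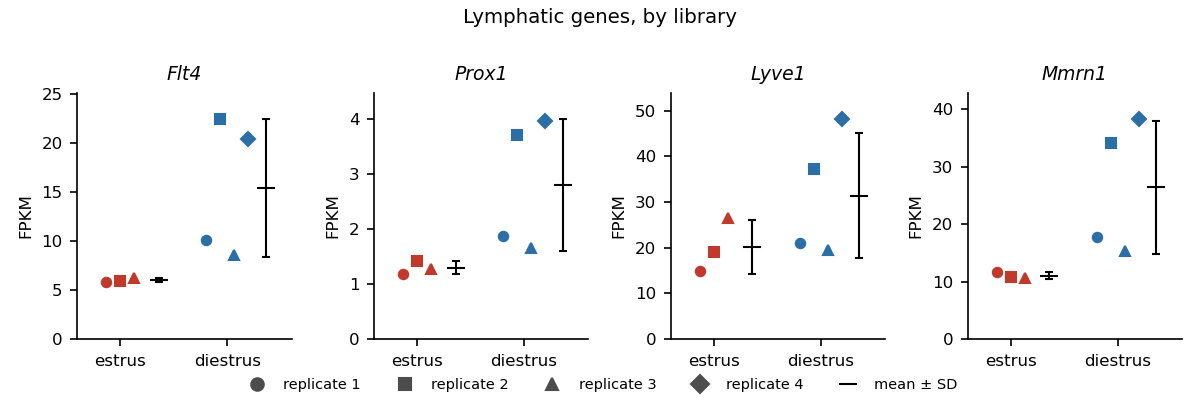
FPKM (y axes, from 0) per library of the 4 lymphatic genes in estrus (left) and diestrus (right); symbols mark the replicate number, black marks the mean ± SD. In Flt4, Prox1 and Mmrn1 each estrus library lies below each diestrus library, and diestrus replicates 2 and 4 stand above replicates 1 and 3 in all 4 panels.

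To ask which members departed from the general decrease, each gene's change was set against that of Cdh5 within the same libraries. Of 36 members so tested, none was lower than Cdh5 in limma (also 0 at an unadjusted p under 0.05) and 10 were higher at an adjusted p under 0.05. Only Cldn5, Emcn and Egfl7 had more negative log2 fold changes than Cdh5, which left little room for members lower than it. Since Cdh5 itself fell, 75.5% of all tested genes were called higher than Cdh5 and 0.661% lower, and the median over all genes was 1.29, so a call says only that a gene did not follow Cdh5. The largest differences were those of Sox7, S1pr1 and Esm1, at 2.69 (SE 0.46), 2.03 (SE 0.38) and 2.02 (SE 0.47) on the log2 scale. Their limma adjusted p values were 5.02e-05, 0.000144 and 0.000897. The Cdh5 values were subtracted from every gene, so all genes shared the error of Cdh5. The fit pools variances as if genes were independent, so p-values against Cdh5 can be too small and calls too many. As a ratio of FPKM to that of Cdh5, S1pr1 stood at 1.16, 1.81 and 1.82 in estrus, against 0.386, 0.465, 0.308 and 0.337 in diestrus, and Sox7 at 0.700, 1.19 and 1.49 in estrus, against 0.355, 0.225, 0.0933 and 0.0716 in diestrus.

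Icam2, Dll4, Cd34, Lmo2 and Notch4 differed from Cdh5 by 1.501, 1.46, 1.44, 1.38 and 1.32, close to the median of all genes. These 5 and the 3 largest passed in all 12 alternatives tried, among them Pecam1 or Tie1 in place of Cdh5 and leaving out single libraries. Plvap and Clec14a, at 0.99 and 0.98 (limma adjusted p = 0.02 and 0.0255), passed in 6 and 5 of the 12 and lost the call with Pecam1 or Tie1 in place of Cdh5. All 4 lymphatic genes, at 0.13 to 0.69, and most pan-endothelial genes were not shown to differ from Cdh5. Pecam1 differed by 0.02 (SE 0.37) and Tek by 0.04 (SE 0.38). Both Notch pathway genes of the arterial group, Dll4 and Notch4, were among those higher than Cdh5, and Sox17 at 0.76 was not.

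**Figure D5:**
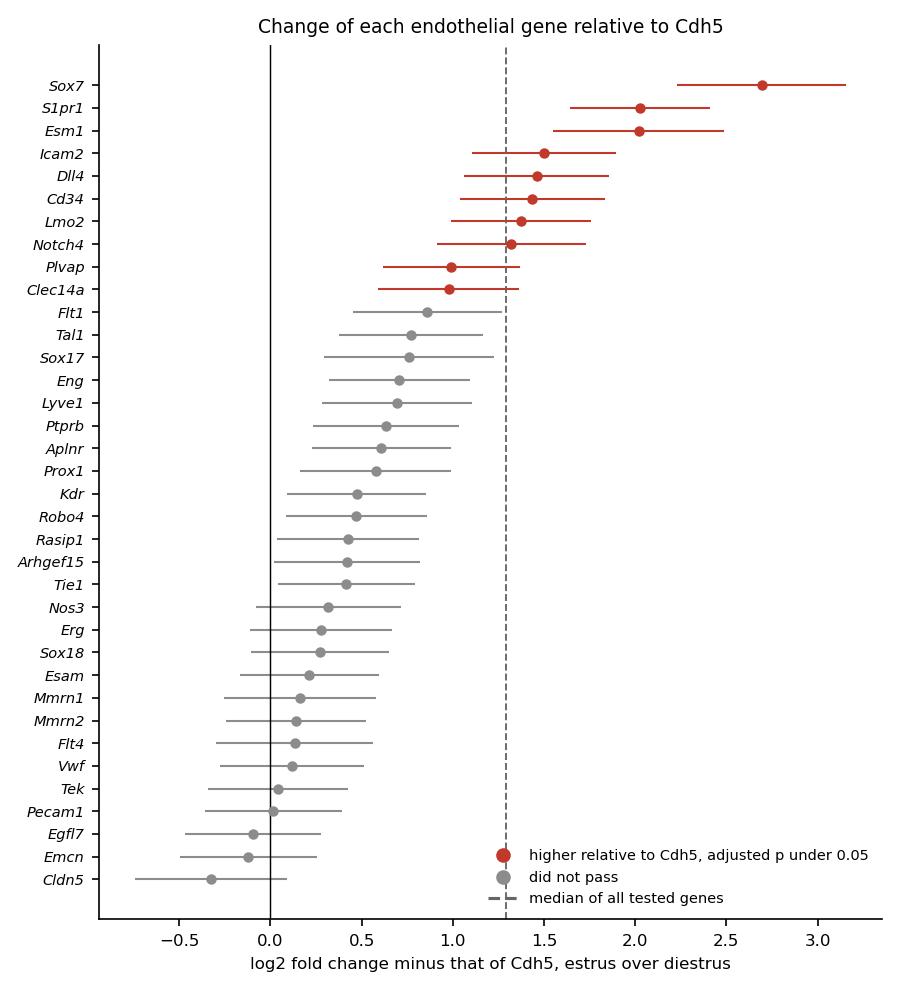
Log2 fold change of each member minus that of Cdh5 (x axis, estrus over diestrus) for the 36 members tested against it; points are limma estimates, bars are ± 1 SE, red marks an adjusted p under 0.05 and the dashed line is the median of all tested genes at 1.29. Sox7, S1pr1 and Esm1 lie beyond the dashed line by the widest margin, and Cldn5, Emcn and Egfl7 lie below 0 without a call.

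Lists of further vascular genes outside the 38 are given beside the 14.0% called lower and 17.2% called higher among all tested genes. With a library left out, the shares over all tested genes changed too, and counts in such fits are to be read beside them. Without estrus replicates 1, 2 and 3 in turn, 8.04%, 4.2% and 10.4% were lower and 11.1%, 6.2% and 13.9% higher. Without diestrus replicates 1 to 4 in turn, 17.7%, 11%, 10.4% and 8.31% were lower and 20.8%, 12.8%, 12.6% and 10.4% higher. Of 25 tested endothelial genes outside the members, 12 fell and none rose, with a median log2 fold change of -0.85. The number that fell was 1 without estrus replicate 2, 5 without estrus replicate 1 or diestrus replicate 3, 6 without diestrus replicate 4 and 8 to 17 without each other library. Bcl6b, an endothelial repressor, was at 1.76, 1.73 and 2.302 FPKM in estrus, against 4.56, 6.14, 7.28 and 9.22 FPKM in diestrus, and Ets1, an ETS factor, at 14.8, 11.9 and 12.9 FPKM in estrus, against 18.9, 22.4, 26.1 and 24.2 FPKM in diestrus; neither overlapped between the groups. She and Tspan18 had changes of -0.85 and -1.21 (limma adjusted p = 0.0113 and 0.0154). Of 6 tested venous genes, 3 fell, namely Nr2f2, the venous and lymphatic factor that uterine stroma also makes (-0.78), Ackr1 (-1.03) and Selp, P-selectin (-0.83). This count was 1 without estrus replicate 2.

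A separate list of arterial and Notch genes held 5 of 12 that fell and 1 that rose, with a median of -0.49. The Notch target gene Hey2 was at 2.297, 1.71 and 1.68 FPKM in estrus, against 3.71, 4.81, 4.65 and 4.75 FPKM in diestrus (log2 -0.92, limma adjusted p = 0.00478). Heyl, its relative, was at 1.696, 1.83 and 1.73 FPKM in estrus, against 4.03, 4.797, 3.397 and 4.096 FPKM in diestrus, again without overlap, and the chemokine receptor Cxcr4 and the kinase Bmx had changes of -1.15 and -0.79. Notch1, named after its value was seen, was the gene that rose, by 0.44 (limma adjusted p = 0.0431). Leaving out any library but diestrus replicate 1 left 0 genes of this list that rose, and without estrus replicate 2 the list held 3 that fell. Of 11 genes of tip cells and sprouts, 3 fell: the angiopoietin Angpt2 at 1.8996, 1.34 and 2.31 FPKM in estrus, against 4.13, 5.57, 10.6 and 13.5 FPKM in diestrus, Cxcl12 at 45.3, 71.2 and 91.7 FPKM in estrus, against 134, 166, 134 and 222 FPKM in diestrus, and Adm with a change of -0.75. Without estrus replicate 2 none of these passed. Of 11 further genes used as lymphatic markers, 5 fell and 1 rose, those with the smallest p being Thy1 (-1.44), Pdpn (-0.94), Reln (-1.46) and Sema3a, which rose by 1.43; Thy1, Pdpn and Sema3a are also made outside lymphatics. Of these, 1 fell and none rose without estrus replicate 2, 2 fell without diestrus replicate 2 or 4, and 3 fell without estrus replicate 1 or 3.

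Of 10 ligands and co-receptors of the VEGF and angiopoietin systems, 4 fell and none rose, with 2 to 5 falls when single libraries were left out, the fewest without estrus replicate 2. Vegfc, the ligand of Flt4, was at 1.72, 1.71 and 1.49 FPKM in estrus, against 4.72, 6.11, 4.64 and 7.46 FPKM in diestrus, and Vegfb, a ligand of Flt1, at 8.49, 8.199 and 8.43 FPKM in estrus, against 15.8, 30.4, 17.2 and 23.8 FPKM in diestrus, with log2 fold changes of -1.33 and -1.24 (limma adjusted p = 0.00272 and 0.00701). Angpt2, a context-dependent ligand of Tek, changed by -1.62, and Pgf, placental growth factor, a ligand of Flt1, by -0.80. Leaving out estrus replicate 1 or diestrus replicate 1 gave 1 that rose. Vegfa, named after its value was seen, was at 23.9, 19.6 and 30.1 FPKM in estrus, against 40.6, 28.4, 23.5 and 20.2 FPKM in diestrus, with overlapping groups (log2 -0.17, limma adjusted p = 0.629).

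Markers of other cells of the uterus are given beside the shares over all tested genes, 14.0% lower and 17.2% higher. Counts with a library left out are to be read beside the shares given above for the same fit. They are given only for the smooth muscle, macrophage, leukocyte and mesothelial markers, so the other counts cannot be taken as firmer. Of 8 epithelial markers, 7 rose, and their sum was 3049.6 to 3591 FPKM in estrus and 829 to 1116 FPKM in diestrus; Krt7 and Elf3 rose by 2.52 and 3.13. Of 9 pericyte markers, 4 fell, with a sum of 119 to 178 FPKM in estrus and 191 to 316 FPKM in diestrus, those with the smallest p being Rgs5 (-1.16) and Ndufa4l2 (-0.77) and the largest fall that of Kcnj8 (-1.27), and of 8 stroma markers 2 fell (Thy1 and Pdgfrl), with a sum of 3627 to 4906 FPKM in estrus and 2645 to 4957 FPKM in diestrus. Of 8 smooth muscle markers, 1 rose (Actg2) and 1 fell (Smtn); 0 rose without estrus replicate 2 or 3 or diestrus replicate 2 or 3, and falls numbered 2 without diestrus replicate 1 and 0 without any other library. Of 8 macrophage markers, 3 fell (Csf1r by -1.21, Adgre1 by -1.27 and C1qb by -1.02) and 1 rose (Itgam by 2.80). Their sum was 139 to 278 FPKM in estrus and 131 to 327 FPKM in diestrus. Within it, Itgam was at 22.9, 66.2 and 99.5 FPKM in estrus, against 4.19, 7.97, 9.03 and 6.91 FPKM in diestrus. Of 6 other leukocyte markers, 3 were tested and 2 fell. The macrophage falls numbered 4 without diestrus replicate 1, 0 without estrus replicate 1 or 2 and 1 without each other library, and the leukocyte falls 3 without diestrus replicate 1, 1 without diestrus replicate 2 and 0 without each other library. Platelet markers, which bear on Vwf, Mmrn1, Pecam1 and Esam, summed to 7.801 to 10.8 FPKM in estrus and 6.55 to 8.03 FPKM in diestrus, 6 of 8 averaged under 1 FPKM, and Gp9 and Gp5 stayed under 0.3 FPKM. Pf4 made up most of these sums, at 5.45 to 7.37 FPKM in estrus and 3.54 to 5.13 FPKM in diestrus. Its groups did not overlap, but its change of 0.40 did not pass (limma adjusted p = 0.0902). Haemoglobin and other red cell genes summed to 359 to 1010.2 FPKM in estrus and 237 to 1138 FPKM in diestrus, and 0 of 4 tested passed. Of 5 mesothelial markers, 2 fell (Upk3b and Wt1) and Krt19, shared with epithelium, rose, and 1 fell without estrus replicate 2 or 3 or diestrus replicate 2 or 4. The part of these cells in the endothelial values was not tested.

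FPKM gives a share of the mapped fragments, so no absolute depth was known. Relative depth was read from rows above 0 and under 0.3 FPKM, as the most common ratio of estrus replicate 1 to each library. It ran from 0.92 to 1.36 times that of estrus replicate 1. The 10 highest rows took 33.7 to 38.2% of the FPKM sum in estrus, against 34.2% in diestrus replicate 1 and 12.1 to 18.7% in the other three diestrus libraries. Exons of 8 members (Cd34, Eng, Egfl7, Nos3, Rasip1, Sox17, Dll4 and Prox1) overlap exons of another annotated gene, and the sources used here do not say that counting used strand, so reads of such partners cannot be told apart.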

How the data were processed

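Uterine RNA from 3 estrus and 4 diestrus CD-1 mouse libraries was analysed. The authors deposited FPKM values, 1 column per library; the tool TopHat2 2.0.4 and the build mm10 come without a role, per the submitters' processing notes, and no source used here names the program or annotation behind the FPKM. TruSeq libraries were made from column-purified RNA, per the labels' protocols. Columns were matched by sample description, with 0 left over. FPKM are not counts, so limma 3.58.1 (R 4.3.3) was run on log2(FPKM + 1) for the 13920 genes that reached 1 FPKM in 3 or more libraries, with a variance trend; p-values are two-sided and Benjamini-Hochberg adjusted over these genes, and this scale understates changes of genes near 0. The same fit on differences from Cdh5 compared members with it. Its p-values can be too small, since all genes share the error of Cdh5. The members, gene lists and pairs were chosen with earlier results of these data known. Per-library values are printed for members that passed, for all arterial, tip cell and lymphatic members and for the extremes, and at most 4 genes per list by smallest p. Outside this rule they are also printed for Icam2, Cd34, Flt1, S1pr1, Sox18, Tal1 and Vwf, which did not pass. Other genes of the lists were named after their values were seen. The alternatives changed the pseudocount to 0.1 or 5, dropped the filter or asked for a mean of 5 FPKM, scaled by median ratios or quantiles, dropped the trend, moderated robustly, weighted libraries, added a replicate block or left out each library. Gene positions are from GENCODE M21 and promoters from RefSeq, both GRCm38, the assembly called mm10. Plots used matplotlib 3.10.9 (Python 3.11.15).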

Additional observations from a re-analysis of the deposited data

How the results depend on the processing

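The count of 17 members that fell stayed between 12 and 18 with either pseudocount, without the filter, with the mean filter, with both other scalings and with either other moderation, and 1 member rose in each. In these fits 8.58% (no filter) to 15.8% (median ratios) of all tested genes were called lower. The shares called higher were 10.2% (no filter) to 19.4% (mean filter). The count was 26 with library weights, with 3 rising, where 27.3% and 31.0% of all tested genes were called lower and higher. It was 11 with the replicate block, where S1pr1 and not Sox7 rose, and 7.05% and 9.33% of all tested genes were called lower and higher. No estrus library shares the number of diestrus replicate 4, so with the block that library did not enter the log2 fold changes. They equalled those of the fit without it. With the block the S1pr1 log2 fold change was 0.92 (limma adjusted p = 0.0208), and without diestrus replicate 4 it was the same but did not pass (limma adjusted p = 0.0575). The Vwf log2 fold change with the block was -0.85 and passed (adjusted p = 0.0233). With library weights both passed too (adjusted p = 0.0149 and 0.00637), as did the Sox18 log2 fold change (-1.44, adjusted p = 0.00205). With single libraries left out, 1 to 23 fell and 0 to 2 rose, where 4.2% to 17.7% and 6.2% to 20.8% of all tested genes were called lower and higher. The smallest counts came without estrus replicate 2; the cause was not tested. The counts against Cdh5 stayed at 0 lower and 8 to 14 higher in all 12 alternatives, and no member changed direction with a call. In the main fit 75.5% of all tested genes were called higher than Cdh5 and 0.661% lower, and the shares in the alternatives are not given here. A pairing of the samples by replicate number was not shown. Deviations of same-numbered libraries correlated at 0.20, 0.02 and 0.17, and of the estrus libraries only replicate 1 correlated best with its own number. Since these are deviations from means of 3 and 4 libraries, such a check cannot exclude a pairing. With 3 and 4 libraries the exact permutation can give no p under 0.029, and FPKM carries no read count, so precision at low genes such as Apln and Tal1 is unknown.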

Other observations

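The diestrus libraries differed among themselves in which endothelial genes were high. Of the diestrus libraries, Apln, Sox17, Sox7 and Esm1 were highest in replicate 1, at 3.81, 70.3, 13.8 and 2.91 FPKM, while Cdh5, Pecam1, Sox18, Vwf and Egfl7 were lowest there. The ephrin Efnb2, an arterial marker outside the members that was named after its values were seen, was at 68.7, 62.2 and 58.3 FPKM in estrus, against 66.9, 45.98, 20.1 and 18.97 FPKM in diestrus, and its change of 0.91 did not pass (limma adjusted p = 0.139). Nrp1 and Nrp2, co-receptors of the VEGF receptors also named after their values were seen, had changes of 0.50 and -0.48 (limma adjusted p = 0.0542 and 0.254), and the difference between them was not tested. Nrp2, which lymphatic endothelium carries, was at 12.97, 13.2 and 16.02 FPKM in estrus, against 12.99, 32.2, 14.7 and 25.1 FPKM in diestrus, with diestrus replicates 2 and 4 the highest, as for Flt4, Prox1, Lyve1 and Mmrn1.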
